A study of Mus musculus with 6 samples.

Results

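A set of 9 genes that answer to fatty acids through the PPAR nuclear receptors was examined in mouse C2C12 myotubes given palmitate. The genes encode the lipid droplet coats Plin2 and Plin3, the secreted lipase inhibitor Angptl4, the pyruvate dehydrogenase kinases Pdk1, Pdk2 and Pdk4, the mitochondrial carriers Ucp2 and Ucp3, and the peroxisomal enzyme catalase (Cat). They were found by name, as the probe sets of the array whose single gene symbol was a listed member, out of 12393 genes with such a probe set. Of the 9 genes, 8 had 12 probe sets between them, and Ucp2 was not analysed here. Of the 12 probe sets, 9 passed the filter on signal (a mean log2 level above the 40th percentile of all probe sets, a signal of 267), covering 7 genes, and Pdk2 and 1 probe set each of Angptl4 and Ucp3 did not.

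C2C12 is an established mouse myoblast line that fuses into contractile myotubes once serum is lowered. Per the labels, both groups were grown with 20% fetal bovine serum and differentiated in 2% horse serum for 5 days. The 3 palmitate samples then received 500 µM palmitate, a saturated long-chain fatty acid, for 16 h, and the 3 BSA samples received 1% bovine serum albumin for 16 h. Per the series' design text the fatty acid was bound to fatty acid-free albumin. Labelled cRNA from 10 µg of total RNA was hybridised to Affymetrix mouse 430A 2.0 arrays, 1 per sample. The titles number the replicates but name no separate cultures, and the p-values therefore reflect the spread among 6 arrays, whose source may be technical. Batches were not examined.

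PPAR receptors are transcription factors that bind fatty acids, pair with an RXR receptor and sit on DNA at repeated copies of a short half-site. In skeletal muscle their target genes serve the storage and burning of fat and the sparing of glucose. Perilipins coat and shield stored triglyceride, Angptl4 curbs the release of fatty acids from lipoproteins outside the cell, and pyruvate dehydrogenase kinases shut the entry of glucose carbon into mitochondria by phosphorylating pyruvate dehydrogenase.

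The DNA just upstream of these genes is shown because it is where nuclear receptor half-sites could be looked for beside the measured changes. RefSeq promoter windows of mouse build GRCm38.p6, each running from 250 bases before to 50 bases after a start site, were held for 8 of the 9 genes in 10 windows. Angptl4 had no window, so the matches do not cover it, while Ucp2 had one. Below are those of Plin2 (chr4:86670010-86670309, minus strand), Cat (chr2:103485104-103485403, minus strand), Ucp3 (chr7:100472741-100473040, plus strand) and Pdk4 (chr6:5496229-5496528, minus strand). They are printed 5′ to 3′ on the gene's strand, and capitals mark the half-site AGGTCA or its reverse complement.
Plin2: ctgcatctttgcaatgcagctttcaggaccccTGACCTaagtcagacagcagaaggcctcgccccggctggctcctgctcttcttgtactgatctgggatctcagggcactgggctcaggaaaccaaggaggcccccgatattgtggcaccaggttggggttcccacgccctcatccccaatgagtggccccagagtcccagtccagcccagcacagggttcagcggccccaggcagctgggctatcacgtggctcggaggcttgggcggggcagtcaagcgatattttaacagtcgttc
Cat: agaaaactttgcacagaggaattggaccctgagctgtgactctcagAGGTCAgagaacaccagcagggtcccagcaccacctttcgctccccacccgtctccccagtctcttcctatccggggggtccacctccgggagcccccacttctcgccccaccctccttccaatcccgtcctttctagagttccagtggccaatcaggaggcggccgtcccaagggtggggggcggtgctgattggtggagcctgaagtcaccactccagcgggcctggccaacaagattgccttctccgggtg
Ucp3: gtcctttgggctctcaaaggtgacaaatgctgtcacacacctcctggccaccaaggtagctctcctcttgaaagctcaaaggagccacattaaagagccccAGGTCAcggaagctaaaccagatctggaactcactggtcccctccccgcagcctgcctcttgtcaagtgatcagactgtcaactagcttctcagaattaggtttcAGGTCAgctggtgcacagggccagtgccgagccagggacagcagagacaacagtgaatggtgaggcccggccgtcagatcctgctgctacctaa
Pdk4: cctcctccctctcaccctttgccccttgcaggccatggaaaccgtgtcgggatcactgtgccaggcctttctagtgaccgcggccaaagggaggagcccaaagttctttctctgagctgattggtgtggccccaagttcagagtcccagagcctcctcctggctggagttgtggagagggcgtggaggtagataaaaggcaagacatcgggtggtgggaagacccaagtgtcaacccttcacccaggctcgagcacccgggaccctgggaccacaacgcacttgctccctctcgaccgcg

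Plin2, Cat and Ucp3 were the genes whose windows held AGGTCA on either strand, which gives 3 of 10 windows, against 16.3% of all 32851 promoter windows in the table. Counting from the start site, the match of Plin2 began at -218 on the opposite strand, that of Cat at -204 and those of Ucp3 at -149 and -44. The DR1 element, 2 copies of AGGTCA in the same direction with 1 base between them, was in 0 of the 10 windows and in 0.0396% of all windows. The hypoxia element core ACGTG, searched on both strands, was in 2 of 10 windows (Plin2, at -4 and -3 on opposite strands, and Pdk2), against 19.6% of all windows. CCAAT, likewise on both strands, was in 5 of 10 windows (Cat, Pdk2, Pdk4, Plin2 and Plin3), against 37.4%. Pdk4 had neither half-site nor hypoxia core in this window. These matches describe letters in short windows and say nothing of binding.

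The deposited arrays shared a common average, as the 2% trimmed mean signal lay between 1500.5 and 1500.56 on all 6. Correlations over the 13575 probe sets above the filter were 0.943 to 0.959 within a group and 0.883 to 0.910 between groups. The 3′ over 5′ log2 ratio of the Gapdh control, a measure of RNA integrity, ran from -0.20 to 0.22 on palmitate arrays and from 0.21 to 0.35 on BSA arrays, with palmitate replicate 2 the lowest, and the part of RNA integrity in the results was not tested. BSA replicate 1 stood apart in muscle genes, with the highest signal of the 6 arrays for 15 of 16 myotube markers tested. In the fit over all probe sets, 19.2% passed an adjusted p of 0.05 (limma with Benjamini-Hochberg adjustment), 8.63% higher and 10.6% lower with palmitate. Of these calls, 44.9% were higher as deposited, and 11.3% were higher when arrays were scaled to the 9 hybridisation control probe sets, which moved the median log2 fold change of all probe sets to -0.34 from -0.0083.

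Palmitate-treated myotubes had higher Plin2, Angptl4, Pdk4 and catalase transcripts than BSA-treated myotubes. The rise was 4.11-fold for Plin2 (95% interval 3.44 to 4.91), 3.07-fold for Angptl4 (2.43 to 3.87), 1.92-fold for Pdk4 (1.37 to 2.70) and 1.62-fold for Cat (1.25 to 2.10), from 3 arrays per group. Plin3, Pdk1 and Ucp3 did not pass the test. In all, 4 of the 9 member probe sets tested were called, where 19.2% of all probe sets were. All 4 were higher, against 8.63% of all probe sets, and 0 were lower, against 10.6%. By gene, 4 of 7 were called, against 20.2% of all genes tested. A rise of more than 1 on the log2 scale was called for Plin2 and Angptl4, 2 of 9, against 3.09% of all probe sets. At an unadjusted p of 0.05 the limma counts were also 4 and 0. The shares of all probe sets and genes at that p were not counted, here or for the lists below. For 4 of the 9 the palmitate arrays all lay above the BSA arrays and for 0 all below, against 17.6% and 19.6% of all probe sets, or 37.2% in either direction. BSA replicate 1 had the highest Plin3 and the lowest Pdk4 and Cat (1416430_at) of the BSA arrays. Without it all 4 calls remained, with log2 fold changes of 2.03 for Plin2, 1.67 for Angptl4, 0.70 for Pdk4 and 0.56 for Cat, against 2.04, 1.62, 0.94 and 0.70 with it. The part of its high muscle markers in these values was not otherwise tested. The signal comes from bulk RNA, in which fewer cells of a type and less RNA per cell cannot be told apart.

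**Figure D1:**
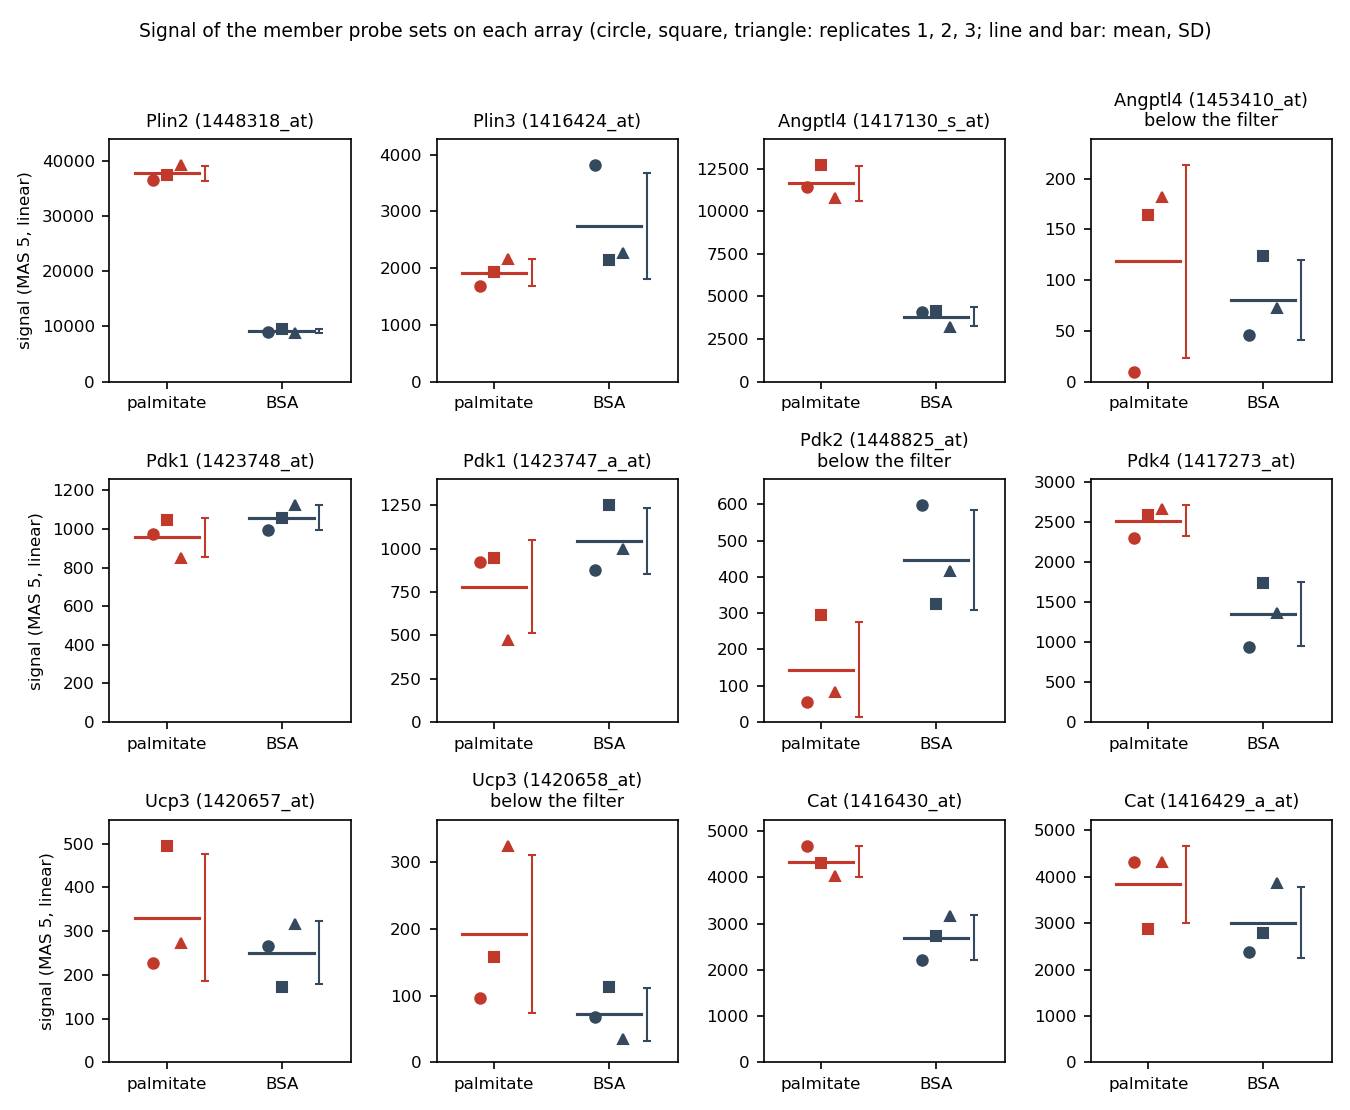
Signal (MAS 5, linear scale from 0) of the 12 member probe sets on each palmitate (red) and BSA (dark) array, with replicates 1, 2 and 3 as circle, square and triangle, the mean as a line and the SD as a bar. Plin2, Angptl4 (1417130_s_at), Pdk4 and Cat (1416430_at) have all 3 palmitate arrays above all 3 BSA arrays, and Pdk2 has all 3 below.

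Plin2 encodes the droplet coat found in most cell types, whose protein is stabilised by stored lipid. Its signal was 36477, 37432 and 39316 on the 3 palmitate arrays, against 9028, 9623 and 8889.8 on the 3 BSA arrays. The groups were far apart and each was tight, with a coefficient of variation of 3.83% among palmitate arrays and 4.24% among BSA arrays. The log2 fold change was 2.04 ± 0.12 (SE, limma adjusted p = 1.66e-06, n = 3 per group), which placed Plin2 at rank 57 of 13575 probe sets from the highest. It lay between 2.01 and 2.07 when each array was left out in turn, and was 1.71 after hybridisation control scaling.

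Plin3, a paralogue whose protein moves from the cytosol onto nascent droplets, gave 1679, 1928 and 2154 with palmitate, against 3822, 2146 and 2272 with BSA. The groups overlapped, and BSA replicate 1 stood well above the other BSA arrays. The log2 fold change was -0.47 ± 0.23 (95% interval -0.96 to 0.019, limma adjusted p = 0.170). Without BSA replicate 1 it was -0.21 (adjusted p = 0.487). After hybridisation control scaling it was -0.81 and passed (adjusted p = 0.0226).

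Set against Plin3 on the same array, a measure that does not depend on how arrays are scaled, Plin2 was more prominent on palmitate arrays. The log2 ratio of the Plin2 to the Plin3 signal was 4.44, 4.28 and 4.19 on the palmitate arrays, against 1.24, 2.16 and 1.97 on the BSA arrays. The groups did not overlap, and their means differed by 2.51 (exact permutation p = 0.1, two-sided, adjusted p = 0.1 over 4 ratios). With 3 arrays against 3 that is the smallest p the test can give, so none of the 4 ratios could pass 0.05. The ratio itself joins probe sets of different brightness, so its level says nothing of which transcript was more abundant.

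Angptl4 encodes a secreted inhibitor of lipoprotein lipase that is a classic PPAR target in fat, liver and muscle. Probe set 1417130_s_at gave 11421, 12726 and 10752 with palmitate, against 4083, 4168 and 3179 with BSA. Every palmitate array was above every BSA array by a wide margin. The log2 fold change was 1.62 ± 0.15 (SE, limma adjusted p = 3.34e-05), at rank 114 of 13575 from the highest. It spanned 1.49 to 1.69 on leaving out 1 array and was 1.28 after hybridisation control scaling. The ending _s_at marks a probe set whose probes can match transcripts of more than 1 gene.

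The second Angptl4 probe set, 1453410_at, lay below the filter. Its signals were 9.0, 164 and 182 with palmitate, against 45.6, 124 and 72.5 with BSA. The groups overlapped, and the unfiltered fit gave -0.20 with a 95% interval of -2.77 to 2.36 (limma adjusted p = 0.946). That interval holds falls as well as rises, among them the value of the brighter probe set, so it is too wide to compare the probe sets.

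Of the member pyruvate dehydrogenase kinases tested, Pdk4 passed and Pdk1 did not. The kinase Pdk3, which is not a member, is given below with the enzyme complex. Pdk4, the isoform raised by fasting and fatty acids in muscle, gave 2293, 2592 and 2659 with palmitate, against 937, 1742 and 1366 with BSA. The lowest palmitate array exceeded the highest BSA array, and the BSA arrays were more scattered, with a coefficient of variation of 29.9% against 7.73% among palmitate arrays. The log2 fold change was 0.94 ± 0.22 (SE, limma adjusted p = 0.0124). Leaving out 1 array gave 0.70 to 1.15 and kept the call each time. After hybridisation control scaling it was 0.61 and did not pass (adjusted p = 0.0622).

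Pdk1, the isoform also induced by low oxygen, was read by 2 probe sets. The brighter, 1423748_at, gave 976, 1045 and 848 with palmitate, against 996, 1055 and 1123 with BSA. The second, 1423747_a_at, gave 923, 949 and 474 with palmitate, against 879, 1252 and 996 with BSA. Both overlapped between groups, and palmitate replicate 3 was the lowest array for each. The log2 fold changes were -0.15 (95% interval -0.59 to 0.29, limma adjusted p = 0.652) and -0.47 (-1.10 to 0.17, adjusted p = 0.293). Without palmitate replicate 3 the second was -0.14.

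Pdk2, a widely expressed isoform, gave 55.6, 294 and 81.8 with palmitate, against 598, 326 and 416 with BSA. All palmitate arrays lay below all BSA arrays, but palmitate replicate 2 was close to BSA replicate 2, and the mean lay below the filter. In the unfiltered fit the log2 fold change was -1.97 ± 0.68 (SE, 95% interval -3.45 to -0.49, limma adjusted p = 0.0979), which did not pass, where 9.9% of the 22626 probe sets without a filter did. Leaving out palmitate replicate 1 brought it above the filter, at -1.48 (adjusted p = 0.120).

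Within arrays, the log2 ratio of Pdk4 to Pdk1 was 1.23, 1.31 and 1.65 with palmitate, against -0.088, 0.72 and 0.28 with BSA. The difference of the means was 1.09, with no overlap (exact permutation p = 0.1, two-sided, the smallest possible). For Pdk4 over Pdk2 the ratio was 5.37, 3.14 and 5.02 with palmitate, against 0.65, 2.42 and 1.72 with BSA. Here the difference was 2.92 (exact permutation p = 0.1), and palmitate replicate 2 was the one nearest to the BSA arrays. Pdk1 over Pdk2 differed by 1.82 without overlap (exact permutation p = 0.1), and by 1.67 with both Pdk1 probe sets averaged, where the groups overlapped (exact permutation p = 0.2). Pdk2 lay below the filter and may be below background on some arrays, so both ratios over it rest on a dim probe set. With an offset of 50 added to each signal their differences were 2.44 and 1.38. Leaving out 1 array moved the 3 differences over 0.89 to 1.30, 2.44 to 3.60 and 1.31 to 2.47.

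**Figure D2:**
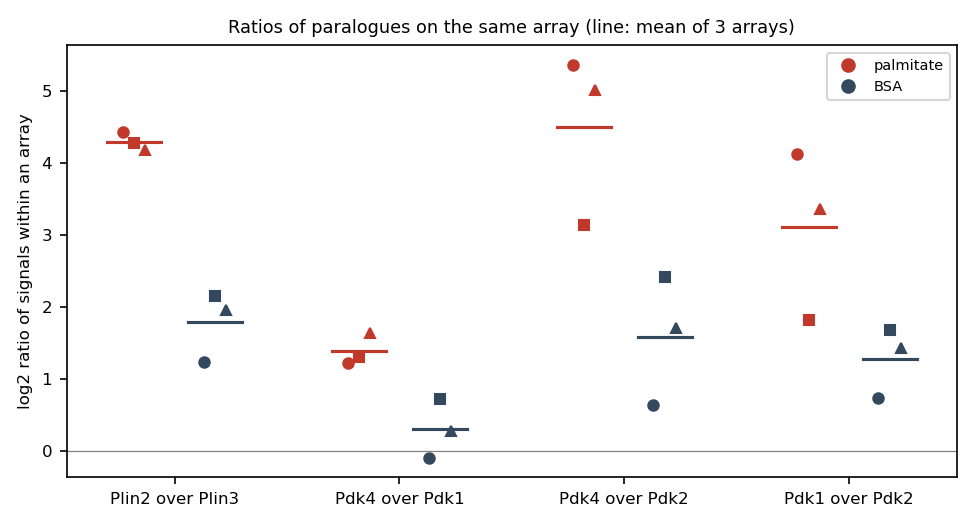
Log2 ratio of the signals of related genes on the same array, for palmitate (red, left) and BSA (dark, right), with replicates 1, 2 and 3 as circle, square and triangle and the mean as a line. For each of the 4 ratios the 3 palmitate arrays lie above the 3 BSA arrays, with a difference of means of 2.51, 1.09, 2.92 and 1.82.

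Ucp3 encodes a muscle mitochondrial carrier that rises in fasting. Its brighter probe set, 1420657_at, gave 226, 495 and 272 with palmitate, against 265, 173 and 315 with BSA. Only palmitate replicate 2 exceeded the BSA arrays. The log2 fold change was 0.36 ± 0.46 (95% interval -0.65 to 1.37, limma adjusted p = 0.640), and 0.026 after hybridisation control scaling. Without palmitate replicate 2 or BSA replicate 3 its mean fell under the filter, and leaving out each other array gave 0.11 to 0.59, the lowest without BSA replicate 2.

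The dimmer Ucp3 probe set, 1420658_at, gave 96.0, 159 and 325 with palmitate, against 68.7, 113 and 34.7 with BSA. The groups overlapped by 1 array on each side. It lay below the filter, and the unfiltered fit gave 1.40 with a 95% interval of -0.39 to 3.19 (limma adjusted p = 0.362). The intervals of both probe sets span 0.

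Catalase breaks down the hydrogen peroxide that peroxisomal fat oxidation makes. Probe set 1416430_at gave 4688, 4301 and 4036 with palmitate, against 2204, 2728 and 3162 with BSA. These groups did not overlap. The log2 fold change was 0.70 ± 0.17 (SE, limma adjusted p = 0.0143), at rank 1248 of 13575 from the highest. It was 0.64 without palmitate replicate 1 (adjusted p = 0.0552) and 0.37 after hybridisation control scaling (adjusted p = 0.225), and passed in neither case.

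The other catalase probe set, 1416429_a_at, gave 4317, 2881 and 4327 with palmitate, against 2390, 2781 and 3859 with BSA. Palmitate replicate 2 lay among the BSA arrays. Its log2 fold change was 0.36 (95% interval -0.12 to 0.83, limma adjusted p = 0.284), and the value of the first probe set fell inside that interval. Without palmitate replicate 2 it was 0.55 (adjusted p = 0.0977), and without BSA replicate 1 it was 0.20. The ending _a_at marks probes that match several transcripts of the same gene.

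**Figure D3:**
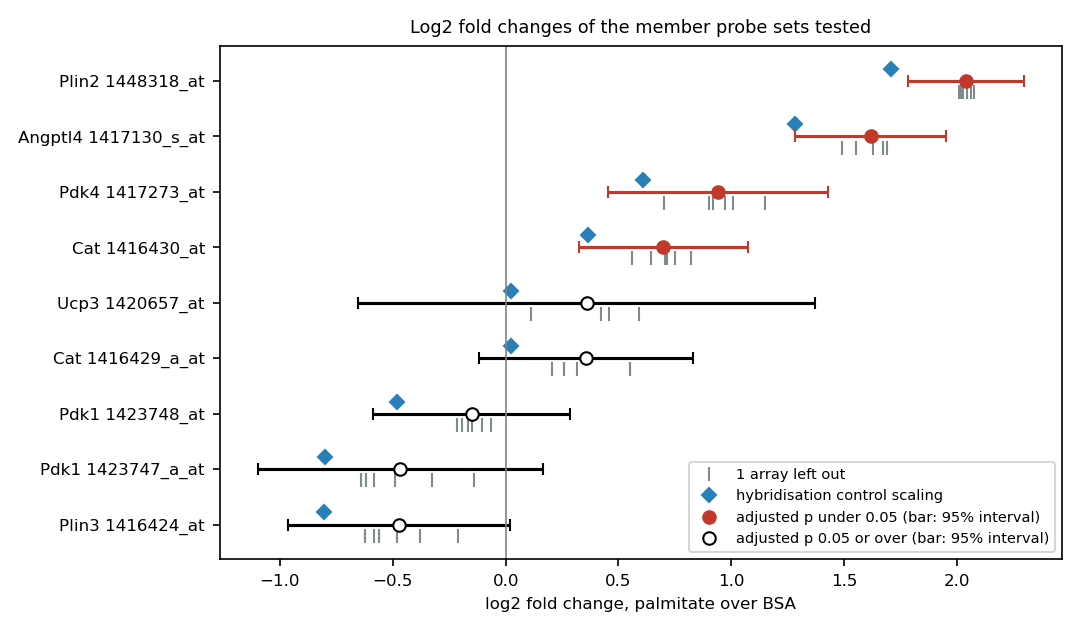
Log2 fold change, palmitate over BSA, of the 9 member probe sets tested, with the 95% interval from limma as a bar (red filled where the adjusted p was under 0.05). Grey ticks give the values with 1 array left out and blue diamonds those after hybridisation control scaling, under which Plin2 was at 1.71, Angptl4 at 1.28, Pdk4 at 0.61 and Cat at 0.37.

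By mean signal, the 3 PPAR receptors lay below the filter of 267 and 2 of their 3 RXR partners above it. Ppara had signals between 6.0 and 43.1 over the 6 arrays and Ppard between 10.4 and 33.5. The partner Rxrg ran from 19.7 to 175 and was also below the filter. Rxra gave 679, 1126 and 804 with palmitate, against 1346, 900 and 873 with BSA, and Rxrb gave 1480, 1763 and 2074 with palmitate, against 1537, 1254 and 1851 with BSA. Both overlapped between groups (log2 fold changes -0.26 ± 0.26 and 0.20 ± 0.21 (SE), limma adjusted p = 0.532 and 0.546), and the second Rxra probe set was at 1.29. Pparg, the fat cell isoform, gave 333, 261 and 438 with palmitate, against 243, 225 and 24.5 with BSA, with a mean below the filter. Its palmitate arrays lay above its BSA arrays, and the unfiltered fit gave 1.61 with a 95% interval of -0.23 to 3.45 (limma adjusted p = 0.299).

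Of 21 receptors and coregulators, 12 were tested, and 0 were called higher and 0 lower (limma), against 7.92% and 12.3% of all genes. At an unadjusted p of 0.05 the counts were 2 and 2. The median log2 fold change was 0.22, against -0.051 over all 7931 genes tested, each gene standing by its brightest probe set. After hybridisation control scaling the list's median was -0.11, against -0.38 over all genes. At that scaling 0 genes were higher, against 2.61% of all genes, and 2 lower (16.7%, against 26.4%). The smallest p belonged to the coactivator Pprc1 (0.53 ± 0.18 (SE), limma adjusted p = 0.0515) and to Ppargc1b (-0.57 ± 0.20, adjusted p = 0.0679). Pprc1 passed after median scaling (adjusted p = 0.0493), quantile normalisation (0.0438) and a stricter filter (0.0389). Ppargc1b passed after hybridisation control scaling (adjusted p = 0.00928). The deacetylase Sirt1 was at 0.57 ± 0.24 and the coactivator Ncoa1 at -0.56 ± 0.25, and Ncoa1 passed after hybridisation control scaling (adjusted p = 0.0270). With the probe sets of each gene averaged before the fit, Pprc1 (adjusted p = 0.0322), Ppargc1b (0.0436) and Ncoa1 (0.0427) passed.

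Other PPAR target genes were called in both directions. Of 44 listed, 40 had a probe set and 31 were tested, of which 3 were higher (9.68%, against 7.92% of all genes) and 4 lower (12.9%, against 12.3%). Their median was -0.26, against -0.051 over all genes tested. After hybridisation control scaling 1 was higher (3.23%, against 2.61% of all genes at that scaling) and 14 were lower (45.2%, against 26.4%). The counts were 2 higher and 1 lower without BSA replicate 2, and 5 higher and 4 lower without BSA replicate 1. In the main fit the 3 higher were Slc27a1, Hilpda and Pnpla2, and the 4 lower were Lpl, Acadm, Decr1 and Acaa2.

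Slc27a1, a fatty acid transporter of the plasma membrane, gave 1472, 2744 and 2512 with palmitate, against 743, 937 and 895 with BSA. The groups did not overlap, and it rose by 1.34 ± 0.25 on the log2 scale (SE, limma adjusted p = 0.00266). Hilpda, a small droplet protein that inhibits the lipase Pnpla2, gave 1106, 1731 and 1421 with palmitate, against 775, 728 and 739 with BSA. It rose by 0.90 ± 0.22 (adjusted p = 0.0139) and did not pass after hybridisation control scaling (0.57, adjusted p = 0.119).

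Pnpla2, the main triglyceride lipase of lipid droplets, gave 1992, 1945 and 2035 with palmitate, against 1439, 1244 and 1185 with BSA, and rose by 0.63 ± 0.17 (limma adjusted p = 0.0248). That call ended after hybridisation control scaling (0.30, adjusted p = 0.361) and without palmitate replicate 1 (adjusted p = 0.0684), palmitate replicate 3 (0.0770), BSA replicate 2 (0.0852) or BSA replicate 3 (0.0869).

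Lpl, the lipase that Angptl4 inhibits, gave 825, 705 and 834 with palmitate, against 1506, 2126 and 1694 with BSA. Its log2 fold change was -1.16 ± 0.21 (SE, limma adjusted p = 0.00218). Its second tested probe set was at 0.064, and the average of both was -0.55 (adjusted p = 0.173). The 3 lower oxidation enzymes had log2 fold changes of -0.63 ± 0.15 (Acadm), -0.75 ± 0.18 (Decr1) and -0.64 ± 0.18 (Acaa2). Without BSA replicate 2 the limma adjusted p was 0.0700 for Acadm and 0.0702 for Decr1. That of Acaa2 was between 0.0516 and 0.0918 on leaving out any array but BSA replicate 3, and 0.0697 with its 3 probe sets averaged (-0.48). With the probe sets of each gene averaged before the fit, 3 of the 31 were higher and 6 lower. Lower there but not in the main fit were Hadh (-0.63, adjusted p = 0.0118), Hadhb (-0.47, 0.0221), Acadvl (-0.49, 0.0440) and Cpt1a (-0.81, 0.0490).

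Among 8 tested lipid droplet proteins beside the members, 2 were higher (25.0%, Hilpda and Pnpla2, against 7.92% of all genes) and 3 lower (37.5%, against 12.3%), and the median was -0.044, against -0.051 over all genes. Scaled to the hybridisation controls, 0 were higher, against 2.61% of all genes, and 3 lower, against 26.4%. Hsd17b11, a droplet dehydrogenase, gave 933, 441 and 801 with palmitate, against 2118, 2583 and 2207 with BSA (log2 fold change -1.73 ± 0.27 (SE), limma adjusted p = 0.000875). G0s2, an inhibitor of Pnpla2, gave 619, 348 and 473 with palmitate, against 1348, 1037 and 1193 with BSA (-1.34 ± 0.27, adjusted p = 0.00438). The monoglyceride lipase Mgll was at -1.22 ± 0.34 (adjusted p = 0.0262), and did not pass without palmitate replicate 1 (adjusted p = 0.0716) or BSA replicate 1 (0.113), nor with its 3 probe sets averaged (-0.75, adjusted p = 0.132).

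The other perilipins measured were dim: Plin4 ran from 43.9 to 290 and Plin5, the perilipin of oxidative muscle, from 5.9 to 154 over the 6 arrays. Both lay below the filter, as did 9 of the 17 droplet genes with a probe set. The unfiltered fit gave intervals of -1.04 to 2.75 for Plin4 and -2.51 to 3.75 for Plin5.

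**Figure D4:**
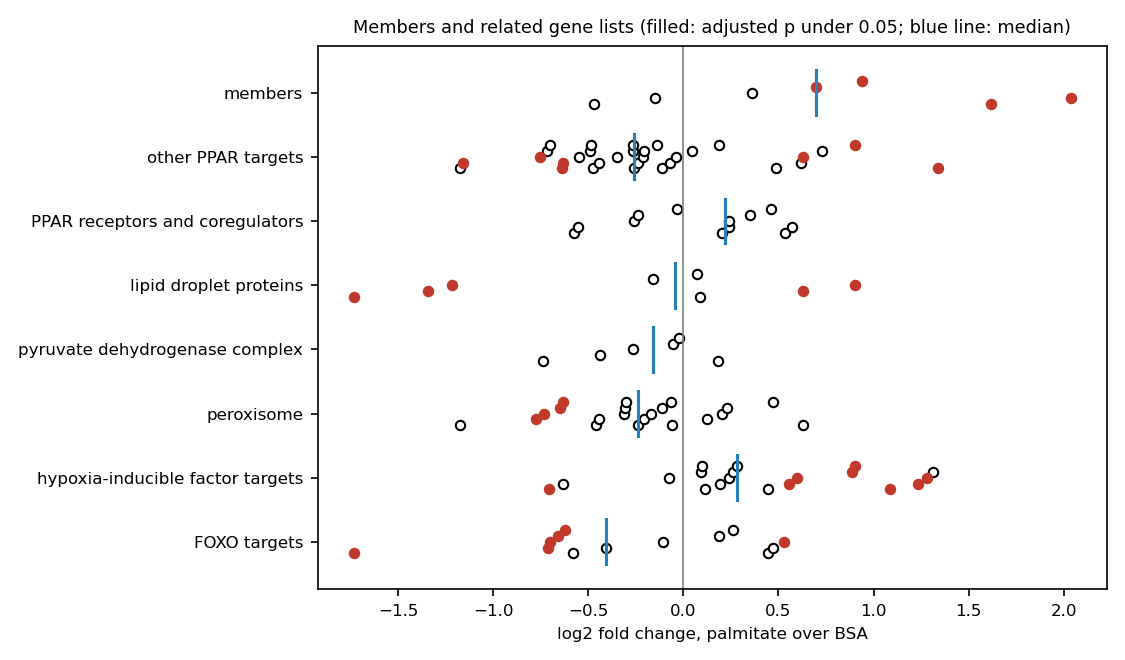
Log2 fold change, palmitate over BSA, of the 7 member genes tested and of the genes of 7 related lists, each by its brightest probe set, red filled where the adjusted p was under 0.05, with the median as a blue line. The other PPAR targets centre on -0.26, the hypoxia-inducible factor targets on 0.28 (-0.054 after hybridisation control scaling) and the FOXO targets on -0.41.

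The enzyme complex that the kinases act on did not pass the test. Of 6 genes of the pyruvate dehydrogenase complex and pyruvate import tested, 0 were called higher and 0 lower (limma), against 7.92% and 12.3% of all genes. At an unadjusted p of 0.05 the counts were 0 and 2, and the median was -0.16. The carrier Mpc1 was at -0.44 ± 0.15 (SE, limma adjusted p = 0.0587) and the kinase Pdk3 at -0.74 ± 0.26 (adjusted p = 0.0643). The catalytic subunit Pdha1 was at -0.27 ± 0.13 and Dld, the shared dehydrogenase, at 0.18 ± 0.16. Mpc1, Pdk3 and Pdha1 were lower when scaled to the hybridisation controls (adjusted p = 0.00960, 0.0113 and 0.0138), which makes 3 of 6, against 26.4% of all genes. Mpc1 also passed with the stricter filter (adjusted p = 0.0482), and Pdk3 without palmitate replicate 1 (0.0483) or BSA replicate 3 (0.0444). With probe sets averaged per gene, Mpc1 (0.0363) and Pdk3 (0.0448) passed. The second tested probe set of Pdha1 was at 0.21, and the average of both was -0.027 (adjusted p = 0.906).

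Catalase shares its organelle with the peroxisomal genes, of which 21 were tested. Of these 0 were called higher, against 7.92% of all genes, and 4 lower (19.0%, against 12.3%), and their median was -0.24. At an unadjusted p of 0.05 the limma counts were 1 and 6. Scaled to the hybridisation controls, 8 were lower (38.1%, against 26.4% of all genes). The lower ones as deposited were the thiolase Scp2 (-0.73 ± 0.14 (SE), limma adjusted p = 0.00377), the bifunctional enzyme Hsd17b4 (-0.77 ± 0.17, adjusted p = 0.00778), the racemase Amacr (-0.65 ± 0.19, adjusted p = 0.0327) and the hydroxylase Phyh (-0.63 ± 0.19, adjusted p = 0.0394). Averaged over its 4 probe sets Scp2 was at -0.46 (adjusted p = 0.0786). In the other direction, Pex5 was at 0.63 ± 0.21 (adjusted p = 0.0536). It was called higher after median scaling (1 of 21, 4.76%, against 8.16% of all genes) and quantile normalisation (4.76%, against 8.35%). With its 2 probe sets averaged it also passed (0.85, adjusted p = 0.0117). Amacr did not pass on leaving out any array but palmitate replicate 2 (adjusted p up to 0.123), nor Phyh on leaving out any but BSA replicate 1 (up to 0.129), nor after median scaling (0.0525) or quantile normalisation (0.0570).

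Pdk1, Angptl4 and Plin2 are also known to respond to hypoxia-inducible factors, and Pdk4 and Cat to FOXO factors, so the other targets of both were counted. Hilpda stands in the hypoxia list as well as among the PPAR targets and the droplet proteins. Of 19 hypoxia-inducible targets tested, 7 were higher (36.8%, against 7.92% of all genes) and 1 lower (5.26%, against 12.3%), with a median of 0.28, against -0.051 over all genes. After hybridisation control scaling 4 were higher (21.1%, against 2.61% of all genes) and 2 lower (10.5%, against 26.4%), and the median was -0.054, against -0.38 over all genes. The 4 were Ndrg1, Hk2, Slc2a1 and Ddit4. Ndrg1, a stress-induced gene, was at 1.28 ± 0.17 (SE, limma adjusted p = 0.000319). The hexokinase Hk2 was at 1.09 ± 0.17 (adjusted p = 0.000982), the glucose transporter Slc2a1 at 0.88 ± 0.14 (adjusted p = 0.00121) and the mTOR inhibitor Ddit4 at 1.23 ± 0.25 (adjusted p = 0.00461). Also higher as deposited were Hilpda, Vegfa (0.60 ± 0.18, adjusted p = 0.0342) and P4ha2 (0.56 ± 0.17, 0.0343). The calls of Vegfa and P4ha2 each ended in 8 of 14 alternatives, 5 of them with 1 array left out. The second tested probe set of Vegfa was at 2.2, and the average of both was 1.40 (limma adjusted p = 0.000205). In that averaged fit P4ha2 also passed (adjusted p = 0.0201). P4ha1 was higher there (0.51, adjusted p = 0.0258) but did not pass in the main fit (0.19, adjusted p = 0.460). The lower gene was the MYC antagonist Mxi1 (-0.71 ± 0.20, adjusted p = 0.0303), which did not pass on leaving out palmitate replicate 1 or any BSA array (adjusted p up to 0.111). The classic glycolytic targets Ldha, Pgk1 and Aldoa were at 0.11, 0.091 and 0.097 and did not pass.

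Of 13 FOXO targets tested, 1 was higher (7.69%, against 7.92% of all genes) and 5 were lower (38.5%, against 12.3%). At an unadjusted p of 0.05 the limma counts were 3 and 5. The median was -0.41, against -0.051 over all genes. The count of lower genes depended on the scaling. It was 2 after median scaling (15.4%, against 11.0% of all genes) and after quantile normalisation (15.4%, against 11.6%). After hybridisation control scaling it was 7 (53.8%, against 26.4%), and 0 were higher, against 2.61%. Foxo1 and Sesn3 were the 2, while Fbxo32 (adjusted p = 0.0515 and 0.0522), Ccng2 (0.0650 and 0.0705) and Sesn1 (0.0621 and 0.0609) did not pass under either of the first 2. Sesn3, a stress-induced regulator of mTOR signalling, gave 559, 584 and 529 with palmitate, against 1655, 1969 and 1954 with BSA (log2 fold change -1.74 ± 0.20 (SE), limma adjusted p = 0.000116). The factor Foxo1 itself was at -0.70 ± 0.19 (adjusted p = 0.0235), the muscle ubiquitin ligase Fbxo32 at -0.71 ± 0.21 (0.0358), the cyclin Ccng2 at -0.66 ± 0.21 (0.0453) and Sesn1 at -0.62 ± 0.20 (0.0499). The higher gene was the DNA damage response gene Gadd45a (0.53 ± 0.13, adjusted p = 0.0133).

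Apart from Sesn3, each of these FOXO target calls ended when some arrays were left out. For Foxo1 these were palmitate replicates 1 and 2 and BSA replicates 1 and 2 (adjusted p up to 0.0892). For Fbxo32 they were palmitate replicates 1 and 2 and BSA replicates 2 and 3 (up to 0.133), and for Ccng2 palmitate and BSA replicates 2 and 3 (up to 0.151). Sesn1 ended without any array but palmitate replicate 2 (up to 0.173). Gadd45a ended without palmitate replicate 1 (0.0517) or BSA replicate 2 (0.0521), and after hybridisation control scaling (0.453). With probe sets averaged per gene, Fbxo32 (-0.47, adjusted p = 0.151) and Sesn1 (-0.45, adjusted p = 0.121) did not pass. Gabarapl1 was higher there (0.52, limma adjusted p = 0.0337) but did not pass in the main fit (0.47, adjusted p = 0.0638).

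Cell type markers were read beside these results. Of 17 myotube markers 16 lay above the filter, all but Myh2, and their summed signal was 195770 to 211823 on palmitate arrays, against 172700 to 292437 on BSA arrays. Of the 16, 15 had their highest signal on BSA replicate 1, whose sum was 292437, against 199309 and 172700 on the other BSA arrays. After hybridisation control scaling, 8 of the 16 were lower (against 26.4% of all genes). As deposited the calcium pump Atp2a1 was called (log2 fold change -0.60, limma adjusted p = 0.0375), a call lost without any array but BSA replicate 3 (adjusted p up to 0.105) and after median scaling (0.0606). Of the 6 adipocyte markers with a probe set, 5 (Adipoq, Cidec, Fabp4, Lep and Pparg) were below the filter, and the sum over all 6 was 933 to 1220 with palmitate, against 592 to 931 with BSA. The 4 endothelial markers were all below the filter, at sums of 288 to 682 and 371 to 471, and of 6 macrophage markers 2 were above it, at sums of 1726 to 2042 and 1181 to 1567, with palmitate given first in both.

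Markers of dividing myoblasts were lower with palmitate in 3 of 4 cases tested (75%, against 12.3% of all genes). These were Mki67 (-1.59 ± 0.17 (SE), limma adjusted p = 9.31e-05), Top2a (-1.12 ± 0.15) and Cdk1 (-0.997 ± 0.163). The other marker tested, Myf5, was at -0.24 ± 0.28 (adjusted p = 0.603) and did not pass. Over 5 such markers, with Pax7 below the filter, the sum was 10129 to 10878 on palmitate arrays, against 18698 to 23306 on BSA arrays. Fibroblast markers were lower in 3 of 3 cases tested, against 12.3% of all genes (Col1a1 at -2.31 ± 0.19, limma adjusted p = 1.05e-05, Dcn at -1.27 ± 0.18 and Pdgfra at -1.67 ± 0.32). Whether these transcripts came from the myotubes or from other cells was not tested. Over 5 such markers, with Lum and Thy1 below the filter, the sum was 3239 to 4325 with palmitate, against 13101 to 16935 with BSA. The part of either shift in the rise of Plin2, Angptl4, Pdk4 and Cat was not tested.

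The genes whose log2 signals followed Plin2 most closely over the 6 arrays were Ubxn4 (Pearson r = 0.998), Creld2 (0.998), Hspa5 by 1 of its probe sets (0.997), Ppp2r2a (0.997) and Hspa1b (0.997). Ubxn4 serves the degradation of misfolded proteins at the endoplasmic reticulum, Creld2 and Hspa5 (BiP) belong to its stress response, Ppp2r2a is a phosphatase subunit and Hspa1b a heat shock protein with a near-identical copy. Their log2 fold changes were 0.43, 2.50, 2.09, 0.45 and 3.53 in that order, against 2.04 for Plin2. These correlations describe 6 arrays in 2 groups, which lie apart for each of these genes.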

How the data were processed

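Transcripts were measured in 3 palmitate and 3 BSA samples. The deposited table gives 1 linear signal intensity for each probe set and array. The authors made it with MAS 5.0, per the series' design text and the submitters' processing notes, and the settings are not given in the sources used here. Detection calls were not used here, so a dim probe set may be below background. Precision is limited by the 6 arrays.

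The table held 22690 probe sets, 64 of them controls. Of the other 22626, 20380 had 1 symbol in the platform annotation, 691 several and 1555 none. Symbols checked through RefSeq gene IDs changed in 0 cases. Signals were log2 transformed, and those whose mean log2 signal lay above its 40th percentile (a signal of 267) were kept. The test of palmitate against BSA used limma 3.58.1 under R 4.3.3 (lmFit, eBayes with intensity trend), two-sided, adjusted over all 13575 probe sets at 0.05. The fit was tested on simulated data. Within-array ratios were compared by an exact permutation test (scipy 1.17.1). A gene of a list stood by its brightest probe set.

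Named were all member probe sets, up to 4 genes of each list with the smallest p, every call where 5 or fewer were made, and the 5 genes closest to Plin2. Other genes named, such as dim receptors and perilipins and the glycolytic targets, were chosen after their values were seen. The members and lists were chosen with earlier results of these data known. A ratio of Ucp2 to Ucp3 was not run. Alternatives were median, quantile and hybridisation control scaling, other filters, an offset of 50, no intensity trend, a replicate block, averaged probe sets and leaving out each array.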

Additional observations from a re-analysis of the deposited data

How the results depend on the processing

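Plin2 and Angptl4 passed under all 14 alternatives, between 1.71 and 2.07 and between 1.28 and 1.69 on the log2 scale. The call of Pdk4 was lost in 1 alternative and that of Cat (1416430_at) in 2, and Plin3 gained one, as given above. Direction was kept in each alternative for the 9 member probe sets tested. Member calls numbered 3 to 4 and all calls 1575 to 2339 on leaving out 1 array, against 4 and 2609, with the lowest count of all calls without BSA replicate 2. Calls among other PPAR targets numbered 3 to 9 on leaving out 1 array and 15 after hybridisation control scaling, against 7. That scaling lowers every log2 fold change by 0.33, since the control mean was 13.15 ± 0.14 with palmitate and 12.82 ± 0.14 with BSA (SD, n = 3 arrays). Which scaling is right was not tested. The within-array differences kept their direction under every alternative run, and for Plin2 over Plin3 lay between 2.24 and 2.70 on leaving out 1 array.

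With the replicate number as a block, 1973 probe sets, 4 member probe sets and 6 other PPAR targets passed, against 2609, 4 and 7. Same-numbered arrays did not deviate together (correlations of -0.23, -0.13 and 0.0091), and 0 of 6 arrays were closest to the array of their own number, so the numbers were not taken to pair the samples. Signals near or under the filter, as for Pdk2, Ucp3, Ppara and Plin5, had wide intervals.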
